A study of Mus musculus with 42 samples.

Results

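Esrrb, Nr5a2 and Nr0b1 are 3 nuclear receptor genes of the naive pluripotency network of mouse embryonic stem cells (ESCs). They were chosen by gene name and are 3 of the 16345 named genes of the table of epiblast-like cell (EpiLC) induction and 3 of the 16753 genes of the table of embryoid body (EB) formation, each with 1 line in either table. The cells came from KH2-ISY1, an ESC line carrying a Flag-ISY1 transgene that is induced by doxycycline (Dox), and from a DGCR8 knockout ESC line. ISY1 is a splicing factor, and microRNA precursors are cut by Drosha with the help of DGCR8. KH2-ISY1 cells without Dox were collected in 2i/LIF (0 h) and after 6, 12, 18, 24, 30, 36, 48, 72 and 96 h in EpiLC medium, and with Dox after 24, 48, 72 and 96 h. Knockout cells, whose labels give no Dox treatment, were collected in 2i/LIF and after 6, 24, 48, 72 and 96 h. Converted ESCs (cESCs) were EpiLCs of 24 or 48 h, grown without or with Dox, that had been replated into 2i/LIF, and all 4 cESC libraries are labelled as without Dox at collection. The EB table holds KH2-ISY1 cells without Dox in serum/LIF (day 0) and after 1, 2, 4, 8, 10 and 13 days of EB formation, and serum/LIF cells with Dox. Every condition and time has 1 polyA RNA library, 24 in the EpiLC table and 8 in the EB table. No line without the ISY1 transgene was given Dox, so Dox and ISY1 cannot be told apart, and the labels name neither the parent of the knockout line nor the number of clones of either line.

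Nuclear receptors are transcription factors with a ligand-binding domain, and most also carry a zinc-finger domain that binds the hexamer AGGTCA or a variant of it. Esrrb, the estrogen-related receptor beta, is an orphan receptor that sustains naive self-renewal downstream of Nanog and of GSK3 inhibition. Nr5a2, also known as LRH-1, binds as a monomer and acts on regulatory regions of Pou5f1, and it is best known from liver and bile acid metabolism. Nr0b1, also known as DAX1, is an X-linked receptor that lacks the zinc-finger domain and is known as a corepressor of other receptors, the Nr5a receptors among them. The naive network falls silent when ESCs move through the formative state of EpiLCs.

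The 250 bases before the most upstream gene start that RefSeq lists for each gene (build GRCm38.p6) are shown because all 3 transcripts ended low in both courses below. Capitals mark the hexamer AGGTCA, searched on both strands. The windows lie at chr12:86360867-86361116 (plus strand) for Esrrb, at chr1:136960449-136960698 (minus strand) for Nr5a2 and at chrX:86191525-86191774 (plus strand) for Nr0b1, each printed 5′ to 3′ on the strand of its gene.
Esrrb: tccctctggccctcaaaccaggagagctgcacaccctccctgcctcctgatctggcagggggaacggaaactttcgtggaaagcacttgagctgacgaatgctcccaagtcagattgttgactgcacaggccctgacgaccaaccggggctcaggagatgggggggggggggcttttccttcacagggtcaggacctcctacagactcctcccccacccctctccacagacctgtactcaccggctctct
Nr5a2: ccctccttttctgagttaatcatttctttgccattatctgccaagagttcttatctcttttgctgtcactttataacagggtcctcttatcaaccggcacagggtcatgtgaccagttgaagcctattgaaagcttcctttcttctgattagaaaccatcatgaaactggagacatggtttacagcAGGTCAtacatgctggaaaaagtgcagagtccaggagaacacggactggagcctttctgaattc
Nr0b1: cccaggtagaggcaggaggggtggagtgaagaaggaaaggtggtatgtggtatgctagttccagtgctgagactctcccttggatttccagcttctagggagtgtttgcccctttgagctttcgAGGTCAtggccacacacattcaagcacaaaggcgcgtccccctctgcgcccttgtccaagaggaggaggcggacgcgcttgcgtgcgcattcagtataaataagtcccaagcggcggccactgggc
The hexamer occurred 1 time in the window of Nr5a2, at bases -64 to -59 from the start, and 1 time in that of Nr0b1, at bases -126 to -121. It was not found in the window of Esrrb, nor in the windows of a further start of Esrrb and a further start of Nr5a2. Of all 32851 RefSeq windows of this length, 14.0% held it. The 9-base forms TCAAGGTCA, TCAAGGCCA, CCAAGGTCA and CCAAGGCCA, bound by Nr5a and estrogen-related receptors and overlapping the hexamer in part, were in none of the 5 windows of the 3 genes and in 1.92% of all windows. A match is a string of letters and not a measured binding site.

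Values are normalised read counts, that is, gene read counts that had been divided by a size factor of each library. A library held between 5802000 and 56019000 reads (rounded), and 1 read was worth 0.0952 to 0.935 units, so intervals beside a level or a ratio of 2 libraries are 95% exact Poisson or binomial intervals of counting error only. The values follow a gene between libraries and, without a correction for transcript length, give no order between genes. In bulk RNA, fewer cells with a transcript and less transcript per cell cannot be told apart. Isy1 stood at 423, 397, 557.5 and 418 without Dox at 24, 48, 72 and 96 h and at 3038, 912, 1109 and 708 with Dox, which is 7.19-, 2.30-, 1.99- and 1.69-fold. Every Dox library was above its partner, although the average over the 4 pairs did not pass the test (log2 difference 1.45 ± 0.31, limma adjusted p = 0.0542), and the difference became smaller with time (change of -0.41 ± 0.07 in log2 per square root of an hour, limma adjusted p = 0.0190). Dgcr8 stood at 36.8 to 44.5 in the 6 knockout libraries, below the 75.2 to 231 of the KH2-ISY1 libraries without Dox at these hours (log2 difference -1.48 ± 0.20 (SE), limma adjusted p = 0.000703). Reads on Dgcr8 remained in every knockout library, and which part of the gene was deleted is not given in the sources used here.

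During EpiLC induction without Dox all 3 transcripts ended far below their start, Esrrb with a fall from the first hours, Nr5a2 after 12 h near its starting level and Nr0b1 after a rise. Esrrb stood at 2401 at 0 h, at 1924, 1716 and 1412 at 6, 12 and 18 h, and at 817, 752 and 776 at 24, 30 and 36 h. It then dropped to 302 at 48 h, 72.5 at 72 h and 55.7 at 96 h. Esrrb thus ended 43.1-fold below its start, and its largest fold between successive libraries lay between 48 and 72 h.

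Nr5a2 kept its starting level of 356.5 for 12 h, with 352 at 6 h and 334 at 12 h. It stood at 226, 93.6, 57.1 and 119.5 at 18, 24, 30 and 36 h, and at 19.5, 8.5 and 1.3 at 48, 72 and 96 h. The last value rests on 3 reads (interval 0.263 to 3.73 units), so the transcript was close to the limit of detection by then, and the fold between 0 and 96 h of 274 is known only roughly. Nr0b1, the corepressor, went from 497 at 0 h and 692 at 6 h to 1992, 1979 and 2156 at 12, 18 and 24 h, a peak 4.33-fold above the start. It stood at 1009 at 30 h, 2005 at 36 h, 242 at 48 h, 36.5 at 72 h and 10.6 at 96 h. From its peak Nr0b1 fell 203-fold within 3 days.

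**Figure D1:**
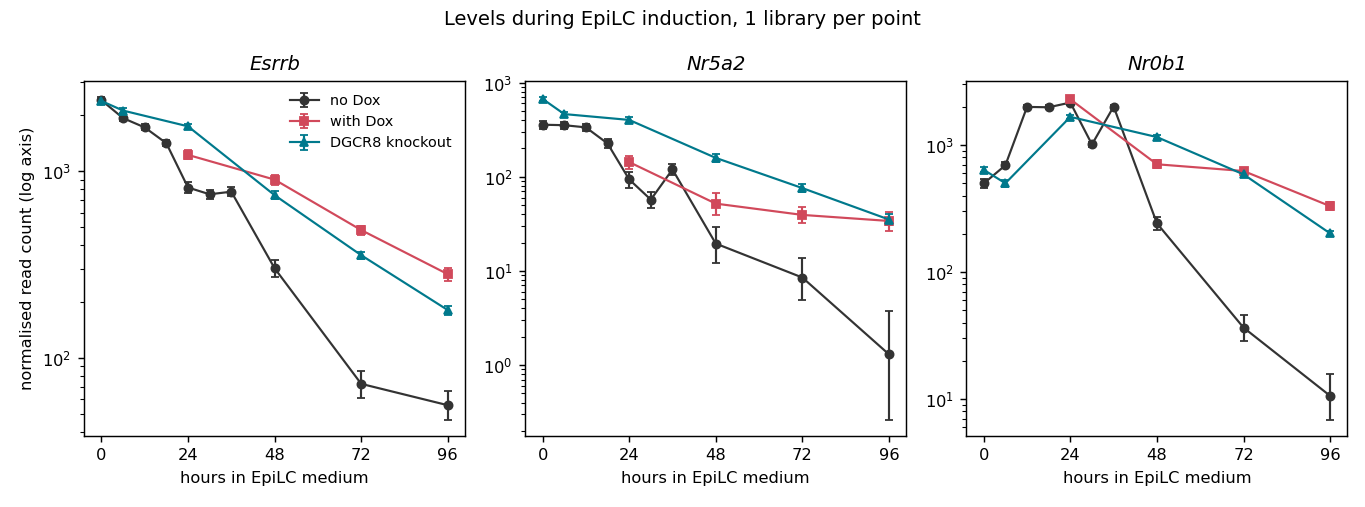
Normalised read count (log axis) of Esrrb, Nr5a2 and Nr0b1 against hours in EpiLC medium, for KH2-ISY1 cells without Dox (10 libraries), with Dox (4 libraries) and DGCR8 knockout cells (6 libraries); each point is 1 library and bars are 95% counting intervals. Esrrb without Dox ran from 2401 to 55.7, and from 48 h on every Dox and knockout point lies above the point without Dox.

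The fit of a smooth curve over the 10 libraries without Dox called all 3 genes as changed, with a lower end than start. The fitted change from 0 to 96 h on the log2(value + 1) scale was -5.70 ± 0.39 (SE) for Esrrb, -7.18 ± 0.64 for Nr5a2 and -5.63 ± 0.80 for Nr0b1. The F test of any change along the curve gave limma adjusted p = 4.42e-06, 1.47e-05 and 3.97e-05 in this order. The fit called 50.1% of 16206 genes, and 24.8% with a lower end, so that a call alone was common. The size was not common, since 0.0494% of the genes tested fell as far as Nr5a2, 0.370% as far as Esrrb and 0.383% as far as Nr0b1. The fitted curve of Nr0b1 reached its highest point at 18 h, 2.09 log2 units above the start. The library at 30 h lay under both of its neighbours for Nr0b1 and for Nr5a2, and its levels were 0.504 and 0.478 of those at 36 h, whereas Esrrb was at 0.968 of its level at 36 h.

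No other nuclear receptor that passed the test fell as far. Of a list of 46 further receptor genes 27 were in the table, of which 9 ended higher, 4 ended lower and 14 did not pass the test. The share called was 48.1%, near the 50.1% of all genes. Their median change was 0.63 log2 units beside -0.02 over all genes tested. The largest rise was that of Rarg, a retinoic acid receptor (3.98 ± 0.27, adjusted p = 7.86e-07), and Nr2f6 (2.13) and Nr3c1, the glucocorticoid receptor (1.96), also rose. Of the 4 that ended lower, Ppard (-1.02), Nr1h2 (-0.87), Nr1d1 (-0.53) and Nr4a1 (-0.37), all changed by less than the 3 naive receptors, and the lowest fitted change that did not pass was that of Rorb (-3.61, adjusted p = 0.0627).

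**Figure D2:**
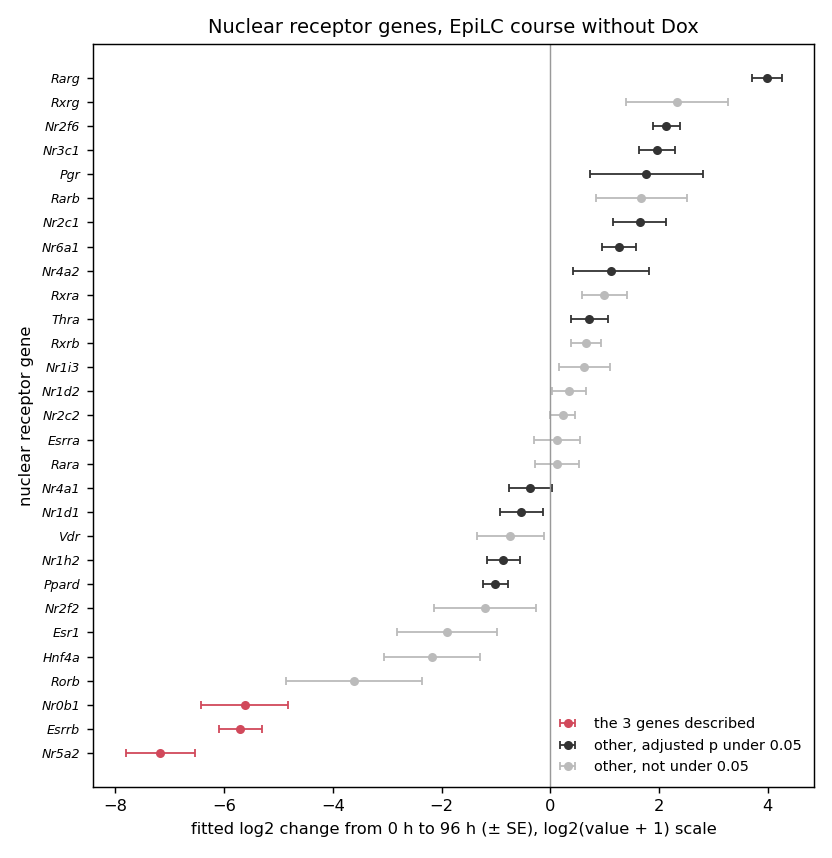
Fitted log2 change from 0 to 96 h of the EpiLC course without Dox (x axis, ± SE from the fit over 10 libraries) for the 3 genes described (red) and 26 of the other nuclear receptor genes (y axis). The 3 lie at -5.63 or below, whereas the other receptors that passed the test (dark) lie between -1.02 and 3.98.

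Among 13 measured coregulators, the proteins that receptors recruit, 3 ended higher and 6 ended lower (median 0.14). Ncoa1 (-1.58) and Ncoa3 (-0.96), the latter known as a coactivator of Esrrb in ESCs, had the largest falls, and Carm1 (1.48) and Ep300 (1.00) the largest rises. Of 17 naive network partners and inputs 15 ended lower and 1 higher (median -3.34), with Klf4 (-6.88) and Tbx3 (-6.56) as the largest falls and Tcf7l1, a repressor of Esrrb, as the rise (0.68). Of 12 formative epiblast markers 10 ended higher, led by Fgf5 (8.56) and Sox3 (8.18), and Lef1 ended lower (-3.95).

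With Dox the decline of all 3 transcripts was shallower, and every Dox library stood above the library without Dox of its hour. Esrrb with Dox stood at 1222, 901, 483.5 and 280.5 at 24, 48, 72 and 96 h, which is 1.50-, 2.99-, 6.67- and 5.03-fold the level without Dox. Nr5a2 stood at 143, 51.8, 39.3 and 33.9, which is 1.53-, 2.66-, 4.63- and 26.6-fold, where the last ratio has a counting interval of 8.75 to 132. Nr0b1 stood at 2285, 704, 624 and 329.9, which is 1.06-, 2.92-, 17.1- and 31.0-fold (intervals 1.00 to 1.12 at 24 h and 20.8 to 48.2 at 96 h). The Nr0b1 levels at 24 h, the first hour measured with Dox, thus differed little, and the ratio was larger at each later hour. From 24 to 96 h Nr0b1 kept 14.4% of its level with Dox and 0.492% without, Nr5a2 kept 23.7% and 1.39%, and Esrrb kept 22.9% and 6.82%. In EpiLCs of 96 h with Dox the Esrrb level was 0.930 (0.813 to 1.06) of that without Dox at 48 h. The same ratio was 1.74 (1.07 to 2.95) for Nr5a2 and 1.37 (1.19 to 1.57) for Nr0b1, both above the 48 h level.

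Averaged over the 4 pairs of hours, Esrrb passed the test (log2 difference 1.80 ± 0.31, limma adjusted p = 0.0392), while Nr5a2 (1.99 ± 0.48, adjusted p = 0.0685) and Nr0b1 (2.63 ± 0.70, adjusted p = 0.0849) did not. The fit called 2.83% of 16117 genes, and 1.78% as higher. The growth of the difference with time passed for all 3, at 0.40 ± 0.08 (adjusted p = 0.0267) for Esrrb, 0.64 ± 0.12 (adjusted p = 0.0262) for Nr5a2 and 1.03 ± 0.08 (adjusted p = 0.00142) for Nr0b1, in log2 units per square root of an hour. That fit called 2.84% of the genes, and 1.72% with a positive slope, and no other gene of the 16117 had a slope as high as that of Nr0b1. Without the 48, 72 or 96 h pair the average of Esrrb no longer passed (adjusted p = 0.144, 0.248 and 0.0703), and without the 24 h pair Nr5a2 and Nr0b1 did (adjusted p = 0.0358 and 0.0267). The slope of Esrrb did not pass without the 24 h pair (adjusted p = 0.178), nor that of Nr5a2 without the 96 h pair (adjusted p = 0.202).

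Of the 27 other nuclear receptors only Vdr, the vitamin D receptor, was called on average, and it was higher with Dox (1.85 ± 0.29, limma adjusted p = 0.0351). That is 3.7% of the list, near the 2.83% called over all genes, and the list median was 0.08 beside -0.01 over all genes. Of 17 naive network genes 4 were called, all higher (median 0.97): Tbx3 (2.44), Klf4 (1.51), Tfcp2l1 and Klf5. Of 12 formative markers 4 were called, all lower (median -0.70), with Sfrp2 (-1.29) and Sall2 (-1.25) as the largest falls. Of 13 coregulators Ncoa1 (0.95), Nrip1 (0.69) and Ncoa3 (0.67) were called higher and Carm1 (-0.48) lower, and under either other scaling of the libraries 1 was called in each direction.

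Some markers of primitive endoderm, an extraembryonic lineage, were also higher with Dox than without at the same hours. Of the 8 measured of 10, 4 were called higher (50% beside 2.83% of all genes called), with Sox7 (2.08) and Gata6 (2.03) as the largest differences. The summed level of the 8 was 603 to 1331 with Dox and 358.5 to 785.5 without at 24 to 96 h. In 2i/LIF at 0 h it was 2133, above every Dox library, and in the EpiLC course without Dox 5 of the 8 ended lower and 2 higher. The summed level of 9 trophoblast markers was 142 to 241 with Dox and 110.5 to 144 without, and none was called. Of 10 visceral endoderm and liver markers, where Nr5a2 is active later, only Cubn and Rbp4 were listed, at a summed 5.6 to 120.4 with Dox and 3.6 to 35.0 without. The 3 measured steroidogenic markers summed to 138 to 216 with Dox and 108 to 193 without, and the 3 feeder fibroblast markers to 26.2 to 56.1 and 42.5 to 154.5, with Col1a2 among the genes at 0. The part of other cell types in the levels of the 3 receptors was not tested.

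**Figure D3:**
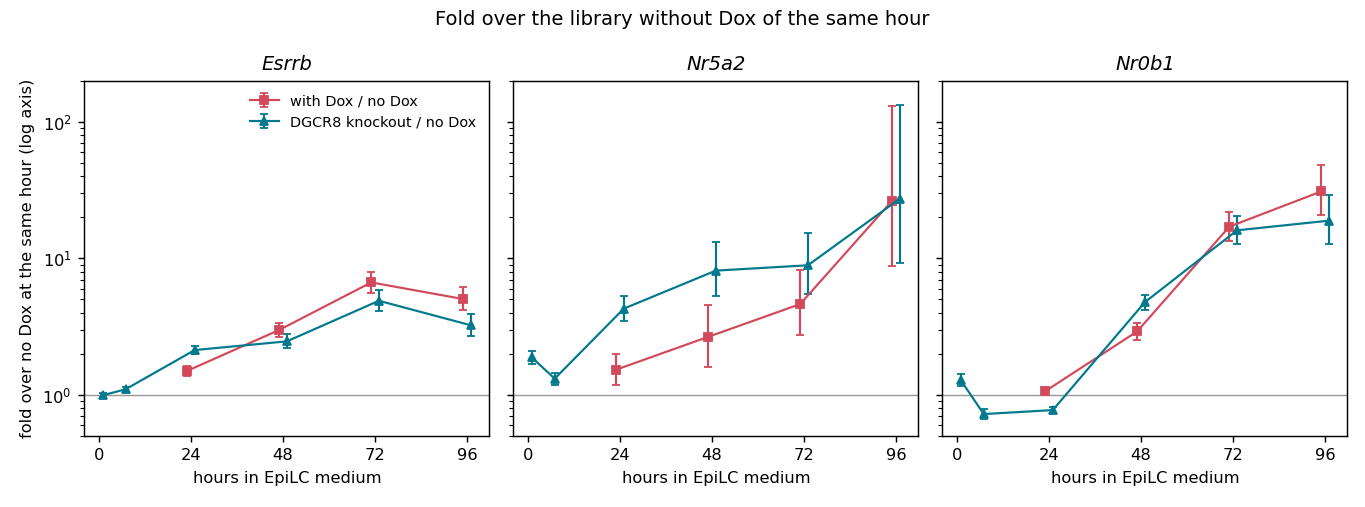
Fold (log axis) of the Dox library (squares) and of the DGCR8 knockout library (triangles) over the library without Dox of the same hour, against hours in EpiLC medium, for each gene; bars are 95% counting intervals and the grey line marks equal levels. Both comparisons use the same libraries without Dox, and Nr0b1 runs from 1.06-fold at 24 h to 31.0-fold at 96 h with Dox.

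In the DGCR8 knockout line the 3 genes also stayed higher in late EpiLCs, and Nr5a2 stood higher at every hour while Nr0b1 stood lower at 6 and 24 h. Esrrb stood at 2377 and 2112 at 0 and 6 h, which is 0.990- and 1.10-fold the KH2-ISY1 level without Dox, and at 1739, 743.5, 354.5 and 180.1 at 24, 48, 72 and 96 h, which is 2.13-, 2.46-, 4.89- and 3.23-fold. Nr5a2 stood at 670.3, 462, 401, 158, 75.7 and 35.1 at the 6 hours, which is 1.88-, 1.31-, 4.28-, 8.14-, 8.91- and 27.5-fold (the last with an interval of 9.30 to 134). Nr0b1 stood at 637, 499.5 and 1664 at 0, 6 and 24 h, which is 1.28-, 0.722- and 0.772-fold, and at 1153, 586.5 and 201 at 48, 72 and 96 h, which is 4.77-, 16.1- and 18.9-fold. Its groups therefore crossed, with the knockout lower at 6 and 24 h and higher at the other 4 hours.

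On average over the 6 pairs Nr5a2 (log2 difference 2.22 ± 0.42, limma adjusted p = 0.00318) and Esrrb (1.08 ± 0.27, adjusted p = 0.0125) were higher in the knockout, and Nr0b1 did not pass (1.64 ± 0.64, adjusted p = 0.0635). The fit called 42.4% of 16267 genes, and 18.1% as higher, with 2941 genes higher and 3958 lower, a split that became 3570 and 3121 under median-ratio scaling and 3561 and 3148 under TMM-like scaling. Without the 6 h or the 24 h pair Nr0b1 passed (2.07 and 2.05, adjusted p = 0.0347 and 0.0452). The difference grew with the square root of the hour by 0.22 ± 0.04 for Esrrb (adjusted p = 0.0436) and 0.34 ± 0.05 for Nr5a2 (adjusted p = 0.0383), and for Nr0b1 the slope was 0.48 ± 0.10 (adjusted p = 0.0834). That fit called 0.523% of the genes, and 0.375% with a positive slope, and the calls of Esrrb and Nr5a2 were both lost whichever of the 6 pairs was left out (adjusted p = 0.0540 to 0.145). What the loss of DGCR8 and what other features of this line contribute cannot be told apart.

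Within the knockout line's own course Esrrb and Nr5a2 fell from each hour to the next, by 13.2- and 19.1-fold in all. The fitted change from 0 to 96 h was -3.74 ± 0.18 for Esrrb, -4.13 ± 0.22 for Nr5a2 and -0.87 ± 0.56 for Nr0b1. The F test of any change along the curve gave limma adjusted p = 0.000507, 0.000553 and 0.0475 in this order. The call of Nr0b1 is thus not a test of its lower end. The fit called 25.1% of 16106 genes, and 11.3% with a lower end. Nr0b1 again peaked at 24 h, 2.61-fold above its start, and ended at 201 beside a start of 637, and without the 96 h library its fitted change was 0.49 (adjusted p = 0.435). The call of Nr0b1 was also lost without the 24, 48 or 72 h library (adjusted p = 0.169, 0.133 and 0.131).

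The knockout and Dox comparisons share their libraries without Dox, so the levels are given side by side. For Nr5a2 the knockout stood highest of the 3 at 24, 48, 72 and 96 h, although 35.1 in the knockout and 33.9 with Dox at 96 h overlap in their counting intervals. Esrrb was highest in the knockout at 24 h (1739 beside 1222 with Dox) and with Dox at 48, 72 and 96 h. Nr0b1 was highest with Dox at 24, 72 and 96 h and in the knockout at 48 h (1153 beside 704). The lowest level at 48, 72 and 96 h was that without Dox for all 3 genes.

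In the knockout 16 of the 27 other nuclear receptors were called, 9 higher and 7 lower (median 0.34 beside -0.08 over all genes, and 9 and 5 called under either other scaling). That was 59.3% of them, beside 42.4% of all genes. Nr2f2 (2.04), Esr1 (1.97), Nr2c2 (1.28) and Nr1d2 (0.84) had the largest rises, and Rorb (-2.20), Nr2f6 (-1.84), Thra (-1.01) and Pgr (-0.98) the largest falls, of which Nr2f2, Esr1, Rorb and Pgr had mean levels under 10. All 9 called of 13 coregulators were higher (median 0.54), led by Ncoa3 (1.57) and Ncoa1 (1.36). Of 17 naive network genes 9 were called higher and 1 lower (median 0.95; 11 and 1 under either other scaling), with Klf2 (3.64) and Prdm14 (2.74) as the largest rises and Klf5 (-0.90) as the fall. Of 12 formative markers Otx2 (0.86) was called higher and 4 lower, Pou3f1 (-1.65) and Fgf5 (-1.51) by the most. Of 8 primitive endoderm markers Gata4 was called higher (1.06) and Gata6 (-1.68), Sox7 and Lama1 lower, at a summed level of 336 to 1530.5 in the knockout at 24 to 96 h. The summed trophoblast level there was 80.4 to 140.5, that of Cubn and Rbp4 7.2 to 20.9, that of the steroidogenic markers 85.9 to 111 and that of the feeder markers 20.2 to 42.0, and their part in the levels of the 3 receptors was not tested.

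In cells replated into 2i/LIF Esrrb stood higher than in the EpiLCs of origin in all 4 pairs and Nr5a2 beyond counting error in 3, while Nr0b1 stood lower in 3 of the 4. Esrrb stood at 1424 and 2314.5 in cESCs from EpiLCs of 24 and 48 h without Dox and at 2261 and 1392 in those from EpiLCs with Dox, beside 817, 302, 1222 and 901 in the EpiLCs they came from. That is a rise of 1.74-, 7.67-, 1.85- and 1.55-fold. Nr5a2 stood at 112, 314, 356 and 240.5 in the same order, beside 93.6, 19.5, 143 and 51.8, a rise of 1.19-, 16.1-, 2.49- and 4.65-fold. The first of these has an interval of 0.916 to 1.56, so that no rise was detectable there at this depth. Nr0b1 stood at 170.0, 656, 615 and 316 in cESCs beside 2156, 242, 2285 and 704 in EpiLCs, which is 0.0789-, 2.72-, 0.269- and 0.449-fold.

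Measured against the starting 2i/LIF cells, cESCs from the 48 h culture without Dox and from the 24 h culture with Dox were close for Esrrb (96.4% and 94.2% of the level at 0 h) and Nr5a2 (88.0% and 99.9%), and above it for Nr0b1 (132% and 124%). Those from the 24 h culture without Dox reached 59.3% for Esrrb, 31.3% for Nr5a2 and 34.2% for Nr0b1, and those from the 48 h culture with Dox 58.0%, 67.5% and 63.6%. Isy1 in the cESCs with a Dox history stood at 331 and 235, beside 221 and 324.5 in those without. The order by Dox history thus turned over between the hours. The same pair of libraries, from 24 h without Dox and from 48 h with Dox, had the higher summed level of 9 trophoblast markers (507 and 508, beside 252 and 222 in the other cESCs) and the lower one of 8 primitive endoderm markers (509 and 761, beside 974 and 1352) and of the 17 naive network genes (20284 and 26750, beside 31226 and 35947). Summed levels in all 4 were 3.4 to 6.3 for Cubn and Rbp4 and 11.7 to 21.1 for feeder markers, and steroidogenic markers reached at most 129.7, and the part of any of these in the receptor levels was not tested. With Dox as against without, the cESC ratio was 1.59 for Esrrb, 3.19 for Nr5a2 and 3.62 for Nr0b1 after 24 h in EpiLC medium, and 0.601, 0.767 and 0.482 after 48 h. These are single libraries with no test, and 20.8% and 8.65% of all genes differed by 2-fold or more in either direction at these hours.

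**Figure D4:**
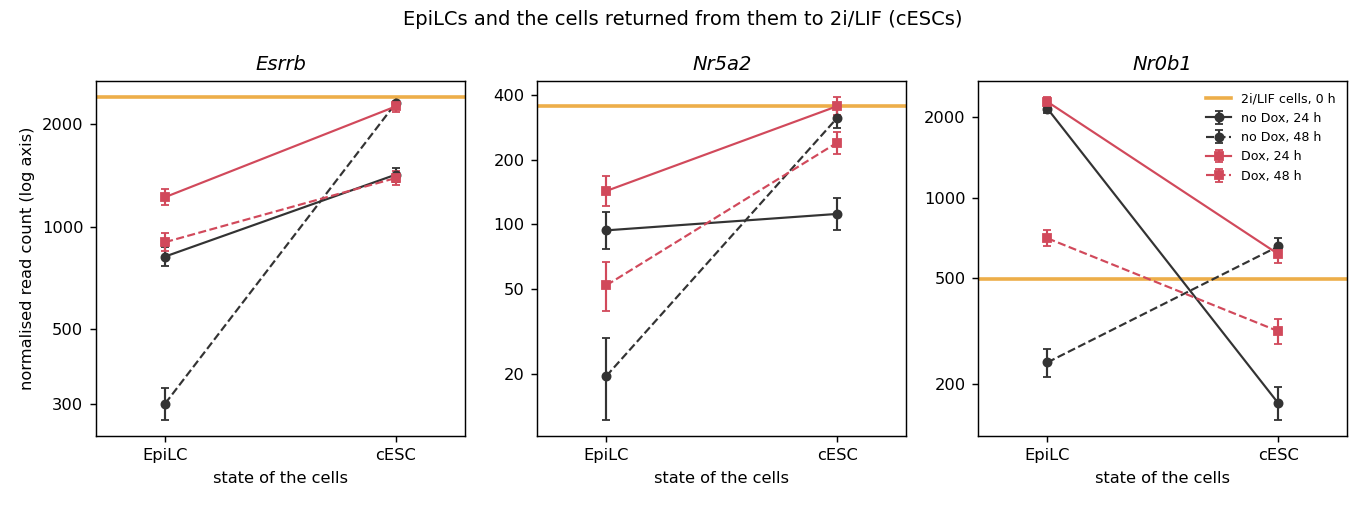
Normalised read count (log axis) in EpiLCs of 24 h (solid lines) and 48 h (dashed lines) without Dox (black) and with Dox (red), joined to the cESCs replated from them, with 95% counting intervals; the yellow line is the level at 0 h in 2i/LIF. The cESC points of Esrrb and Nr5a2 lie higher in all 4 pairs, for Nr5a2 from 24 h without Dox within counting error, and that of Nr0b1 lies higher only from the 48 h EpiLCs without Dox (242 to 656).

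Over the 4 pairs Nr5a2 (log2 difference 1.92 ± 0.50, limma adjusted p = 0.0318) and Esrrb (1.31 ± 0.35, adjusted p = 0.0346) were higher in cESCs than in their EpiLCs. Nr0b1 did not pass (-1.32 ± 0.65, adjusted p = 0.183). In the pairs from Dox cultures Dox was also withdrawn, and Isy1 was called lower in this fit (-1.59 ± 0.40, limma adjusted p = 0.0296). The change of medium and the withdrawal of Dox cannot be told apart in those pairs. The fit called 18.4% of 16075 genes, and 5.62% as higher. The split of 903 higher and 2057 lower became 1274 and 1630 or 1259 and 1642 under the other scalings, which moved the median of all genes from -0.14 to -0.02. Esrrb no longer passed without the 24 h or 48 h Dox pair (adjusted p = 0.0808 and 0.0717), nor Nr5a2 without either of these or the 48 h pair without Dox (0.0757, 0.123 and 0.0521), and without that last pair Nr0b1 passed (-2.23, adjusted p = 0.0112). Of 26 other nuclear receptors tested 5 were called, all lower (median -0.67), which is 19.2% beside 18.4% of all genes called and 12.8% called lower. Among them were Rarg (-4.20), Nr3c1 (-1.67) and Nr2f6 (-1.62), which had each ended higher in the EpiLC course. Of 17 naive network genes 8 were called, all higher (median 0.98), led by Prdm14 (4.07) and Klf2 (3.58).

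During EB formation from serum/LIF the 3 genes were lost between day 1 and day 4, after a day in which none had dropped. Esrrb stood at 1699 on day 0, 1868 on day 1, 532 on day 2 and 36.9 on day 4, and then at 31.2, 39.4 and 38.9 on days 8, 10 and 13. Nr5a2 stood at 202, 246, 102 and 12.5 on days 0, 1, 2 and 4, and at 11.2, 15.0 and 13.9 on days 8, 10 and 13. Nr0b1 stood at 604, 1713, 599 and 19.4 on days 0, 1, 2 and 4, and at 15.3, 20.6 and 13.3 on days 8, 10 and 13. As in EpiLC medium, Nr0b1 rose before it was lost, here 2.84-fold by day 1. From day 4 on all 3 stayed on a low plateau, with counting intervals that overlapped for each gene between days 4, 8, 10 and 13. Day 13 lay 43.7-fold below day 0 for Esrrb, 14.5-fold for Nr5a2 and 45.3-fold for Nr0b1.

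**Figure D5:**
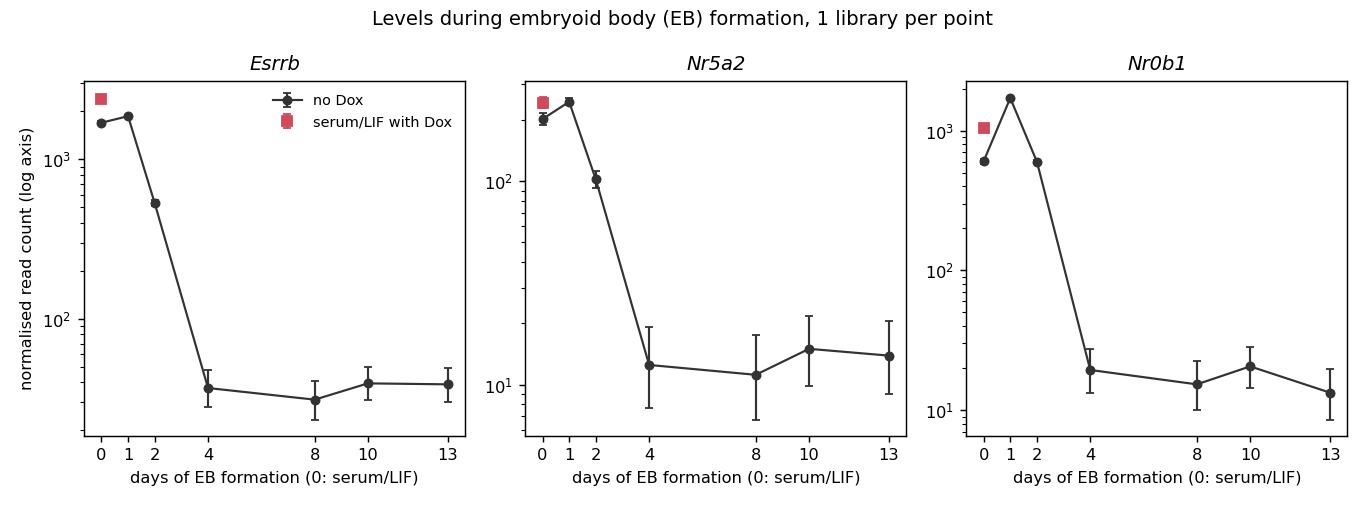
Normalised read count (log axis) of each gene against days of EB formation without Dox (black, 7 libraries, day 0 in serum/LIF) and in serum/LIF with Dox (red square, 1 library), with 95% counting intervals. All 3 genes drop between days 1 and 4, and Nr0b1 first goes from 604 to 1713.

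The fitted change from day 0 to day 13 was -6.91 ± 1.22 for Esrrb, -4.90 ± 0.99 for Nr5a2 and -7.22 ± 1.59 for Nr0b1. The F test of any change along the curve gave limma adjusted p = 0.0143, 0.0237 and 0.0304 in this order. The fit called 26.9% of 16753 genes, and 9.61% with a lower end, and 0.0179% of the genes tested fell as far as Nr0b1, 0.0298% as far as Esrrb and 0.519% as far as Nr5a2. The fitted curve is smoother than the data, in which Nr0b1 on day 1 lay 2.12 log2 units above it, and the median of all genes was 0.12 and moved to -0.01 under either other scaling. Esrrb no longer passed without day 10 (adjusted p = 0.0522), Nr5a2 without day 8, 10 or 13 (0.0569, 0.0720 and 0.0534) and Nr0b1 without day 2, 8, 10 or 13 (0.0506 to 0.0831).

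While the naive receptors were lost in EBs, several receptors known from other lineages rose. Of 32 other nuclear receptors measured in EBs, 10 ended higher and 3 lower (median 0.89 beside 0.12 over all genes). In all 40.6% of them were called, beside 26.9% of all genes, of which 17.3% ended higher and 9.61% lower. Nr2f1 (8.98 ± 0.88, adjusted p = 0.00147) and Nr2f2 (8.89 ± 0.92, adjusted p = 0.00197), the COUP transcription factors, rose the most, followed by Hnf4a, a receptor of liver and gut (7.06), and Esrrg, a paralog of Esrrb (5.68). Rarg, which had ended higher in EpiLCs, ended lower in EBs (-4.31), as did Nr4a1 (-3.09) and Nr1d2 (-1.09). Of 17 naive network genes 12 ended lower and 1 higher (median -2.40), led by Zfp42 (-6.57) and Klf5 (-5.53). Of 8 visceral endoderm and liver markers 6 ended higher, led by Ttr (13.09) and Afp (12.64), and their summed level ran from 53.1 to 10563 over the 7 libraries. That of primitive endoderm markers ran from 280.01 to 37183. That of the markers listed for feeder fibroblasts was 21.5 to 329 on days 0 to 10 and 12581 in the 1 library of day 13. Which cells carried these markers, and their part in the levels of the 3 receptors, was not tested. Nr5a2, itself a gene of visceral endoderm and liver, was at most 15.0 in the libraries of days 4 to 13.

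In serum/LIF the 3 genes stood higher with Dox, by less than 2-fold each. Esrrb stood at 1699 without and 2410.24 with Dox (1.42-fold), Nr5a2 at 202 and 244 (1.21-fold) and Nr0b1 at 604 and 1046 (1.73-fold), while Isy1 stood at 328 and 5096. There is 1 library of either kind, so no test was made, and 9.38% of 16036 genes differed by 2-fold or more in either direction, 189 of them higher and 1315 lower with Dox. Whether the 2 tables were normalised together is not given in the sources used here, so levels in serum/LIF are not compared with those in 2i/LIF.

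Ordered by level over the 24 EpiLC-table libraries, Esrrb was highest in 2i/LIF cells without Dox (2401), followed by knockout cells in 2i/LIF (2377), cESCs from the 48 h culture without Dox (2314.5), cESCs from the 24 h culture with Dox (2261) and knockout cells at 6 h (2112). Each of these 5 overlapped its neighbour in counting interval. Nr5a2 was highest in the knockout cells at 0, 6 and 24 h (670.3, 462 and 401), of which the last overlapped KH2-ISY1 cells at 0 h (356.5) in counting interval. Nr0b1 was highest in EpiLCs of 24 h with Dox (2285) and without (2156), then without Dox at 36, 12 and 18 h (2005, 1992 and 1979), again with overlapping neighbours. All 3 were lowest without Dox at 96 h. Of the 23 pairs of neighbours in each order, 13 overlapped for Esrrb, 18 for Nr5a2 and 13 for Nr0b1.

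Over the 24 EpiLC-table libraries, which share conditions and a common scaling, the Pearson correlation of log2(value + 1) was 0.948 between Esrrb and Nr5a2, 0.700 between Esrrb and Nr0b1 and 0.709 between Nr0b1 and Nr5a2. Among 13957 genes with a mean of at least 10, the 5 whose pattern was most like that of Esrrb were Tcl1 (0.968), 1700061G19Rik (0.957), Cd38 (0.953), Nr5a2 (0.948) and Susd2 (0.945). For Nr5a2 they were 1700061G19Rik (0.977), Tdh (0.968), Sh3gl2 (0.956), Cd38 (0.953) and Susd2 (0.953), so that 3 of the 5 genes were on both lists. For Nr0b1 they were a gene whose name had been turned into a date (0.963), Rex2 (0.929), Zfp600 (0.927), Dlc1 (0.927) and Gm7325 (0.923), none of them on the EpiLC-table lists of Esrrb and Nr5a2. Over the 8 libraries of the EB table Esrrb and Nr5a2 were each other's closest match among 14992 genes (0.999). Next came Klf5 (0.994) and Slc25a36 (0.994) for Esrrb. For Nr5a2 they were Usp9x (0.993) and a gene (0.991) with the same date-like name as the closest match of Nr0b1 above. Nr0b1 was there most like Tns3 (0.992), 2310061I04Rik (0.992) and Nlrc4 (0.990).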

How the data were processed

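PolyA RNA was sequenced in 32 libraries of mouse ESCs, from 3 ug of total RNA each with a stranded kit, per the labels' protocols. The submitters' processing notes name Bowtie and the builds GRCm38 and mm9, without versions or roles, and the counter, annotation and normalisation are not given in the sources used here. The 2 deposited tables hold signal, which the values show to be gene read counts that the authors divided by a size factor of each library. A size factor was found for all 32 libraries, and in the 23 whose rounding is fine enough 100% of values came out within 0.1 reads of a whole number. The line without a gene name, at most 0.00589% of a library's value, was left out, and 10 small RNA libraries were not used here.

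Tests ran in limma 3.58.1 (R 4.3.3) on log2(value + 1), with variances moderated along a trend in mean level, two-sided, on genes that averaged 1 or more in the libraries fitted, with Benjamini-Hochberg adjustment over all genes tested and a threshold of 0.05. With 1 library per condition, the Dox (4 pairs), knockout (6 pairs) and return (4 pairs) fits had hour or pair as a block. Their p-values thus set an average difference against its spread over hours or pairs, and not over replicates. Courses were natural splines of the square root of time with 3 (EpiLC) or 2 (EB, knockout) degrees of freedom and a moderated F test. Its p-value sets any change along the curve against the deviations of single libraries from the curve. It does not test the change from the first to the last value. Higher or lower is the last fitted value against the first. The change of an effect with hour was a slope on the square root of the hour. edgeR 4.0.16 on whole reads was an alternative and called 109 genes for Dox (24 and 48 h pairs), 6651 for the EpiLC course to 72 h, 2741 for the return and 4540 for the EB course, beside 456, 8125, 2960 and 4505 with limma.

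The 3 genes and the 9 gene lists were chosen with earlier results of these data known. Named are the 3 genes, Isy1 and Dgcr8, up to 4 called receptors with the largest change in each direction per fit, up to 2 called genes each way of the other lists, and the 5 (EB: 3) genes most like each gene in pattern. Beyond that rule Tfcp2l1, Klf5, Sox7, Lama1, Cubn, Rbp4, Col1a2, Rorb (EpiLC course), and Ncoa3 (Dox) were named after their values were seen. The result of 1 receptor that the rule would name is not reported here. Intervals are 95% exact and cover counting error only. Python 3.11.15 was used for levels, intervals and motif searches.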

Additional observations from a re-analysis of the deposited data

Results flagged for a closer look

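The difference between Dox and no Dox was not the same at 24, 48, 72 and 96 h, by the test of its change with hour. The slope in log2 units per square root of an hour was 0.40 for Esrrb, 0.64 for Nr5a2 and 1.03 for Nr0b1. The difference between the knockout and KH2-ISY1 cells without Dox passed the same test over 0 to 96 h, with a slope of 0.22 for Esrrb and 0.34 for Nr5a2. Both slopes use the same libraries without Dox, among them the library at 96 h in which Nr5a2 rests on 3 reads. The knockout calls of both genes were lost whichever pair was left out. The Dox slope of Esrrb did not pass without the 24 h pair, nor that of Nr5a2 without the 96 h pair. Without the intensity trend none of these Dox or knockout slopes passed.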

How the results depend on the processing

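Of 384 results for single genes under alternatives, 319 counted as unchanged. For a tested result this means the same direction and side of the threshold, which the EpiLC course without Dox kept in all 63. For an untested ratio of single libraries it means a value within the counting interval. Under TMM-like scaling the log2 ratio in serum/LIF was 0.59 for Esrrb and 0.88 for Nr0b1. The log2 ratio of Esrrb between the cESCs at 24 h was 0.45, beside 0.67 in the authors' scaling. The knockout slope of Esrrb was 0.215 (limma adjusted p = 0.0534). Under median-ratio scaling these log2 ratios of Esrrb were 0.55 in serum/LIF and 0.46 between the cESCs, and its knockout slope was 0.21 (limma adjusted p = 0.0536). edgeR on the 24 and 48 h pairs called 109 genes for Dox, with Esrrb at 1.03 (adjusted p = 0.0558). With a minimum mean of 10 the knockout course of Nr0b1 was -0.87 (adjusted p = 0.0512), and with a straight line in the square root of the hour -0.85 (adjusted p = 0.578). With a pseudocount of 5, 816 genes in serum/LIF and 633 between cESCs at 48 h passed 2-fold, Nr5a2 passed for Dox (1.53, adjusted p = 0.0468) and its knockout slope did not (0.24, adjusted p = 0.0804). Without hour as a block limma called 0 genes for Dox (1276 at an unadjusted p under 0.05) and 3487 for the knockout, and Esrrb for Dox (1.80), Esrrb for the knockout (1.08) and Nr5a2 for the knockout (2.22) had adjusted p = 0.647, 0.49 and 0.222. Without the intensity trend limma called 0 genes for Dox (3306 unadjusted), 0 for its slope (2455 unadjusted), 16 for the knockout slope and 1878 for the return. Esrrb for Dox was then 1.80 (adjusted p = 0.122), the Dox slopes of Esrrb, Nr5a2 and Nr0b1 were 0.40, 0.64 and 1.03 (0.224, 0.168 and 0.157), and the knockout slopes of Esrrb and Nr5a2 0.22 and 0.34 (0.12 and 0.102). The return of Esrrb and Nr5a2 was 1.31 and 1.92 (0.103 and 0.0916), the knockout course of Nr0b1 -0.87 (0.102) and its EB course -7.22 (0.0547). The cause of these changes was not tested.

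When 1 pair or library was left out at a time, the Dox effect ran from 1.49 to 2.20 for Esrrb, 1.35 to 2.46 for Nr5a2 and 1.89 to 3.48 for Nr0b1, and limma's calls from 0 (without the 48 h or the 72 h pair, 3210 and 1924 unadjusted) to 1122 (without the 24 h pair). The Dox slope ran from 0.27 to 0.59 for Esrrb and 0.41 to 0.88 for Nr5a2, with 400 to 1142 calls. The knockout effect of Nr0b1 ran from 1.15 to 2.07, and the knockout slope from 0.19 to 0.26 for Esrrb, 0.29 to 0.45 for Nr5a2 and 0.42 to 0.73 for Nr0b1, which passed without the 0 h pair, with 5 to 59 calls. The knockout course of Nr0b1 ran from -1.54 to 0.49, which turned its direction without the 96 h library, with 1542 to 4996 calls. The return ran from 0.77 to 1.54 for Esrrb, 1.25 to 2.48 for Nr5a2 and -2.23 to -0.54 for Nr0b1, with 1236 to 3028 calls. The EB course ran from -6.97 to -5.25 for Esrrb, -4.98 to -3.82 for Nr5a2 and -7.34 to -6.21 for Nr0b1, with 1919 to 5847 calls. Leaving out the 30 and 36 h libraries together, chosen after seeing the data, gave 7074 calls in the EpiLC course. edgeR was not run for the knockout, where fewer than 2 pairs had whole reads. Pairs in these fits are libraries of the same hour or culture, and none could be formed by replicate number because every condition has 1 library.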
